A study of Mus musculus with 3 samples.

Results

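Cluster 7 of the single-nucleus ATAC-seq (snATAC-seq) data held 109 of 1879 nuclei. Its members were the barcodes that the deposited cell annotation assigns to cluster number 7, and their DNA fragments were taken by barcode from the deposited fragment files. The cluster had been labelled a mix of epithelial cells, chondrocytes and glia, marked by Epcam, Cdh1, Trp63, Sox9 and Sox10, and the question was whether these markers sat together in single nuclei or in separate ones. By their list levels, 33 nuclei carried epithelial genes, 22 carried chondrocyte genes, 12 carried glial genes and none carried more than 1 of the 3 lists in the main setting, while a further 20 nuclei, all from E15.5, carried genes known from fat cells, which the label does not mention.

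The series holds 3 libraries, 1 per embryonic day (E12.5, then E13.5, last E15.5), from wild-type C57BL/6JRj mouse embryos. Nuclei came from a few thick frozen sections per stage of embryos that were littermates of those used for spatial ATAC, were stained with the DNA dye 7-AAD and sorted, and were then tagged with the transposase Tn5, which cuts accessible DNA and leaves sequencing adapters, before droplet barcoding. The number of embryos behind each library was not given in the sources used here, and embryo sex was not determined. The 3 libraries held 153, 970 and 756 nuclei, so any difference between stages compares single libraries and has no replicate check. The nuclei held 8603028, 66925016 and 39513357 fragments in this order of stage, and values for the 3 stages are given in the same order throughout. Cluster 7 was compared with 1341 nuclei of all other clusters except 2 and 4.

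Epithelia are sheets of polarised cells joined by cadherins and claudins; they cover the embryo, line its gut and airways and bud into glands. Chondrocytes are the cells of cartilage, which secrete a matrix of collagen II, collagen IX and aggrecan under the control of SOX9, and in the embryo they lay down the templates of most bones. Peripheral glia arise from the neural crest under SOX10, accompany growing nerves and later become Schwann, satellite and enteric glial cells. In an ATAC library an active gene is often, though not always, accessible over its promoter and body, so the fragments of each gene were counted over its body and the 2 kb upstream and scaled to the total over all counted genes (CPM).

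Cluster 7 made up 3.92% of the E12.5 nuclei (6 of 153, exact 95% binomial interval 1.45 to 8.34), 3.71% of the E13.5 nuclei (36 of 970, 2.61 to 5.10) and 8.86% of the E15.5 nuclei (67 of 756, 6.93 to 11.1). All intervals given here cover counting error only, and not the spread between embryos or preparations. The median depth of its nuclei was 57677, 66472.5 and 77199 fragments at the 3 stages, against 93198, 75897 and 61369 in the other clusters. With 1 barcode per linked group, as described below, the E13.5 median was 80383. Its nuclei were thus shallower than those of the other clusters at E12.5 and deeper at E15.5, while at E13.5 the direction rested on the repeated barcodes. Of its fragments, 10.4%, 10.8% and 12.6% lay at a transcription start site, against 7.57%, 10.3% and 11.05% in the other clusters.

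Of the 36 E13.5 barcodes, 11 formed a single group that shared identical fragments, that is, fragments with the same chromosome, start and end. Linked pairs of this group shared between 11.9% and 65.4% of the shallower barcode's fragments, whereas the other cluster 7 pairs of a library shared a median of 0.0142% and at most 0.113%. The 11 barcodes held 243018 fragments, of which 84052 (34.6%) were distinct, so they carry the information of far fewer nuclei than their number. All 11 lay in cluster 7, and the highest share with any nucleus outside the group was 0.330%. At E12.5 and E15.5 no cluster 7 barcode was linked, and in the other clusters 3.90%, 1.16% and 2.85% of barcodes were linked at the 3 stages. Keeping 1 barcode of the group left 99 nuclei, 26 of them from E13.5, and changed the share of cluster 7 to 2.76% of the E13.5 and 10.7% of the E15.5 nuclei, since linked barcodes of clusters 2 and 4 were reduced as well. Results that rest on the group are given with and without it. No doublet caller was run. Positions covered by 3 or more fragments of a nucleus, which a diploid nucleus should rarely show, had medians of 197.5, 219 and 327 per cluster 7 nucleus at the 3 stages, against 234, 251 and 185 in the other clusters. The E15.5 value was thus the higher one in cluster 7, where depth was higher too, and the part of doublets in the results was not tested.

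The 5 markers of the label differed in how far cluster 7 stood out. Epcam, an epithelial adhesion molecule, reached 20.4, 27.8 and 24.6 CPM at the 3 stages, against 23.9, 15.4 and 12.51 CPM in the other clusters, a pooled ratio of 1.67 (95% interval 1.38 to 2.02) that was 1.60 with 1 barcode per linked group. It was higher than in the other clusters at E13.5 and E15.5 and lower at E12.5, there on 5 fragments with an interval that included 1 (0.27 to 2.05). Cdh1, which encodes E-cadherin, reached 151, 124 and 121 CPM against 78.4, 65.3 and 62.4 CPM, a ratio of 1.88 (1.73 to 2.05) with cluster 7 higher in all 3 libraries. Trp63, the transcription factor of basal cells in stratified epithelia, reached 138, 126 and 76.1 CPM against 124, 85.6 and 99.7 CPM, a pooled ratio of 1.00 (0.91 to 1.10), so over the 3 libraries together its level lay near that of the other clusters. Its level was above the other clusters at E12.5 (interval of the ratio 0.77 to 1.58) and E13.5 and below them at E15.5. Sox9, the master factor of chondrocytes that is also used in glia and many epithelial buds, reached 44.8, 63.4 and 46.5 CPM against 34.3, 32.4 and 36.8 CPM, a ratio of 1.51 (1.32 to 1.71). Sox10, the factor of neural crest and glia, reached 65.1, 77.7 and 23.7 CPM against 29.9, 26.3 and 21.2 CPM, a ratio of 1.63 (1.40 to 1.89), and was close to the other clusters at E15.5 only. Because cluster membership was made from the same fragments, these ratios describe the cluster and no test was run on them.

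Across all genes tested, 5.29% were at least 1.5-fold higher in cluster 7 than in the other clusters, 11.2% were at least 1.5-fold lower, and the median ratio of the 19474 genes was 0.980. Of the epithelial list, 23 of 34 genes were at least 1.5-fold higher and 0 lower, with a median ratio of 1.68, and 21 were higher with 1 barcode per linked group, where 5.38% of all genes were. The claudins of the tight junction led it, Cldn3 with 8.14, 12.1 and 48.3 CPM at the 3 stages against 9.51, 9.64 and 10.6 CPM (ratio 3.66), followed by Sfn, an epithelial 14-3-3 protein, with a ratio of 3.44. Most of the Cldn3 signal came from E15.5. Krt19, a simple-epithelial keratin, had a ratio of 2.92 that fell to 2.34 with 1 barcode per linked group and to 0.876 when only promoters were counted. Cldn4 (2.92), the epithelial splicing factor Esrp2 (2.60) and Cldn7 (2.50) came next, and Trp63 (1.00) and the epithelial sorting adaptor Ap1m2 (1.05) stood lowest.

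Of the chondrocyte list, 20 of the 28 genes counted were at least 1.5-fold higher and 0 lower, with a median ratio of 1.71. Matn3, which encodes the cartilage matrix protein matrilin 3, reached 12.2, 69.8 and 57.7 CPM at the 3 stages against 14.2, 19.01 and 20.4 CPM, a ratio of 3.08. Col9a1, a chain of cartilage collagen IX, reached 36.6, 183 and 74.1 CPM against 63.6, 41.9 and 56.0 CPM, a ratio of 2.14. Both were below the other clusters at E12.5 and above them in both later libraries. The E12.5 ratios rested on 3 and 9 fragments, and their intervals included 1 (0.17 to 2.64 and 0.26 to 1.11). Cytl1 (2.89), a secreted cartilage factor, Mia (2.84), a protein secreted by cartilage, Col9a3 (2.28) and Ucma (2.06), a matrix protein of growing cartilage, completed the leading 6, and Nkx3-2 (1.14) and the sulphate-activating enzyme Papss2 (1.15) stood lowest. Without the E13.5 library only 11 of the 28 genes were at least 1.5-fold higher, where 7.91% of all genes were.

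Of the glial list, 7 of 22 genes were at least 1.5-fold higher and 1 was lower, with a median ratio of 1.17, so the list as a whole stood closer to the other clusters than the other lists of the label, and its sum of 934 CPM was passed by 984 CPM in cluster 9. Gpr37l1, a glial receptor, led with 0, 21.4 and 23.7 CPM at the 3 stages against 19.3, 9.69 and 9.69 CPM (ratio 2.12). Erbb3, the neuregulin receptor of Schwann cell precursors, followed with 122, 76.2 and 85.2 CPM against 32.0, 42.6 and 38.0 CPM (2.09), but cluster 10 reached 116 CPM. Mal (1.74), a myelin protein, S100b (1.64), Sox10 (1.63) and the neural crest factor Foxd3 (1.59) came next, whereas Pou3f1 (0.64), a factor of promyelinating Schwann cells, and the cadherin Cdh6 (0.73) were below the other clusters. Without E13.5 only 3 of the 22 genes were at least 1.5-fold higher, against the same 7.91% of all genes.

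Lists for other cell types had medians below those of the epithelial and chondrocyte lists, but 3 of them, for surface ectoderm, melanocytes and endoderm with glands, stood above the glial list. With 1 barcode per linked group the medians were 1.39, 1.20 and 1.10 against 1.20 for the glial list, so that the list for endoderm and glands fell below it. Of 17 surface ectoderm genes 6 were at least 1.5-fold higher (median ratio 1.40; 4 genes with 1 barcode per linked group), and of 18 genes of endoderm and glands 6 were higher and 2 lower (1.19). Melanocyte genes (8 tested, 0 higher and 1 lower, 1.21), central glia genes (10, 2 and 0, 1.11), neural progenitor genes (10, 2 and 1, 1.11) and osteoblast genes (10, 2 and 1, 1.02) had medians near 1. Mesenchyme genes (12, 0 and 1, 0.942) and genes of kidney and urogenital epithelium (10, 0 and 0, 0.904) stood just below it. As a sum, the central glia list was at 1.35-fold (1.32 to 1.39), above the glial (1.15) and surface ectoderm (1.30) lists and below the epithelial (1.61) and chondrocyte (1.71) ones. Its median ratio over single cluster 7 nuclei was 1.35, against 1.25, 1.23 and 1.08 for the epithelial, chondrocyte and glial lists. Endothelial genes (10, 0 and 2, 0.803), hepatocyte genes (10, 0 and 4, 0.784), muscle genes (10, 0 and 3, 0.753), white blood cell genes (10, 0 and 5, 0.681), neuron genes (9, 0 and 7, 0.564) and erythroid genes (10, 0 and 7, 0.435) stood lowest.

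**Figure D1:**
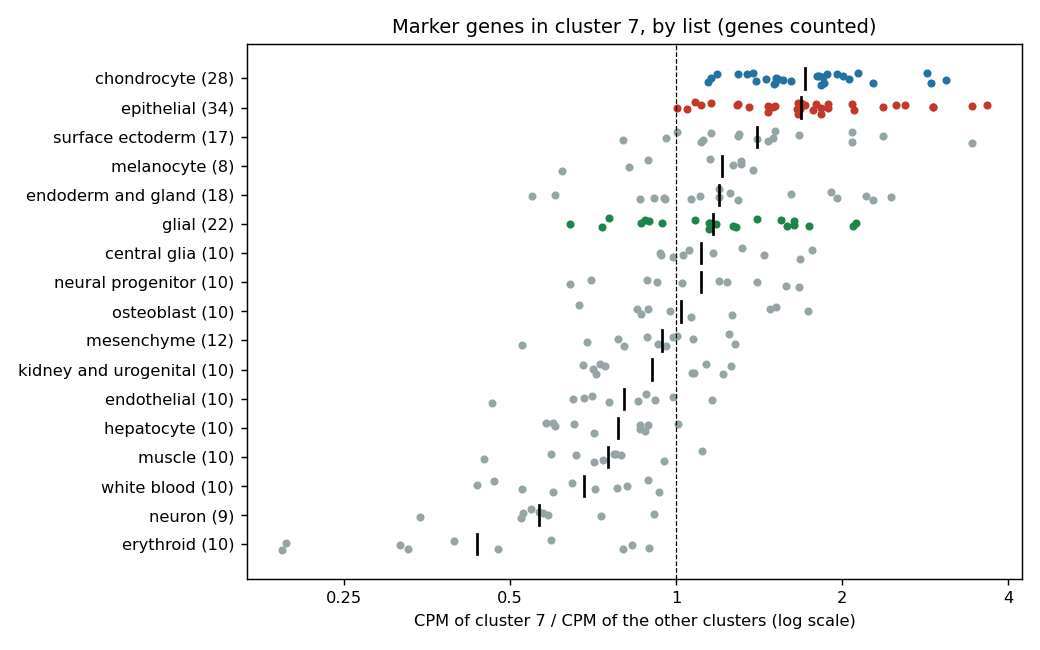
Each point is 1 gene of a marker list, placed by its pooled CPM in cluster 7 divided by that in the other clusters (log axis), with the list's median as a bar and the number of genes counted in parentheses. The chondrocyte (median 1.71) and epithelial (1.68) lists lie to the right, the glial list (1.17) is spread on both sides of 1, and the neuron (0.564) and erythroid (0.435) lists lie to the left.

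Genes were ranked among the 16835 with enough fragments, and only those above the other clusters at both E13.5 and E15.5 were named as high. The highest ratio among them was that of the uncharacterised C130032M10Rik (4.72). Klhdc7a (3.94) and the lactate receptor Hcar1 (3.91), which is best known from fat cells, followed. Cldn3, Sfn, Fxyd3 (3.17) and Matn3 came next, then Gm10188 (3.07), H2-T3 (3.02) and Ppp1r3b (3.02). Fxyd3, an epithelial regulator of the sodium pump, overlaps the glial gene Lgi4 on the opposite strand, and ATAC fragments carry no strand, so their counts cannot be told apart where they overlap. Gm10188 fell to 1.99 with 1 barcode per linked group. Low genes were named only if below the other clusters at both E13.5 and E15.5. Among their lowest ratios were those of the red-cell gene Slc4a1 (0.33), of Slc30a10 (0.29) and Ifi47 (0.30), and of the neuronal adhesion gene Cadm3 (0.31). Slc30a10, Ifi47 and Cadm3 were highest in cluster 5, which was second only to cluster 11 in the sum of the erythroid list. Cadm3 reached 114 CPM there, against 86.4 CPM in cluster 6 and 78.8 CPM in cluster 0.

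A single marker gene seldom decided a nucleus. Epcam had at least 1 fragment in 41.3% of the 109 nuclei, against 40.2% in cluster 8 and 38.3% in cluster 9, the clusters nearest to it in median depth (76240 fragments in cluster 7, 79482.5 and 72286 in these), and 6.98% to 44.2% over all other clusters compared. With all nuclei sampled down to 10000 fragments, a depth that 5 cluster 7 nuclei, 0 of cluster 8 and 1 of cluster 9 did not reach, Epcam was found in 16.3% of cluster 7 nuclei, 9.78% of cluster 8 and 6.25% of cluster 9. Cdh1 was found in 43.3%, 38.0% and 23.8% of thinned nuclei, Sox9 in 26.9%, 5.43% and 25%, and Sox10 in 20.2%, 11.96% and 5.0%. Trp63 was found in 42.3%, 25% and 40% of them. Cluster 7 had the highest share of all clusters compared for Epcam, Cdh1, Trp63 and Sox10, but for Sox9 cluster 6 reached 29.7%, and most cluster 7 nuclei lacked any given marker at this depth. Sox9 and Sox10 shared 4 thinned nuclei, where the product of their shares gives 5.65, and Epcam and Cdh1 shared 10, where it gives 7.36. Pairs within and across lineages lay on both sides of this product, since Cdh1 shared 13 nuclei with Sox10 against 9.09 and 17 with Trp63 against 19.04.

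Lists of genes were therefore read in each nucleus. A nucleus was said to carry a list when its fragments in the list's genes were at least 2 times the number predicted from the pooled share of that list in the other clusters, and it was deep enough when at least 5 fragments were predicted for each of the 3 lists. Of the 104 nuclei deep enough, 33 carried the epithelial list (31.7%, exact interval 22.9 to 41.6), 22 the chondrocyte list (21.2%, 13.8 to 30.3), 12 the glial list (11.5%, 6.11 to 19.3) and 37 none of them. With 1 barcode per linked group the counts were 28, 22, 12 and 37 of 99. In the other clusters the same rule was met by 0% to 4.0% of nuclei for the epithelial list, 0% to 6.25% for the chondrocyte list and 0.39% to 3.75% for the glial list. No nucleus carried more than 1 of the lists (0 of 104, exact upper limit 3.48%), but at a ratio of 1.5 in place of 2 there were 19 such nuclei (18.3%), and at a ratio of 2 there were 4 of 43 with promoters alone, 4 of 44 after thinning and 3 without clusters 3 and 8 in the comparison, so the count of 0 belongs to the setting used here.

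A ratio of at least 2 on the list carried follows from the rule, and on the other lists of the label these nuclei reached up to 1.94 (epithelial), 1.93 (chondrocyte) and just under 2 (glial). Observed over predicted fragments ranged from 2.13 to 4.18 (median 2.63) in the epithelial nuclei, from 2.39 to 7.02 (4.09) in the chondrocyte nuclei and from 2.15 to 3.18 (2.53) in the glial nuclei. The chondrocyte nuclei reached the highest ratios. Their median depths were 76240, 85869.5 and 44328 fragments, and 88282 for the nuclei with none of the 3 lists. Across the 104 nuclei the epithelial and chondrocyte ratios had a Pearson correlation of -0.28 and a Spearman correlation of -0.15 (-0.23 and -0.08 over 99 nuclei with 1 barcode per linked group), and the chondrocyte and glial ratios 0.20 and 0.32 (0.14 and 0.25). These are descriptions over nuclei that share 3 libraries.

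**Figure D2:**
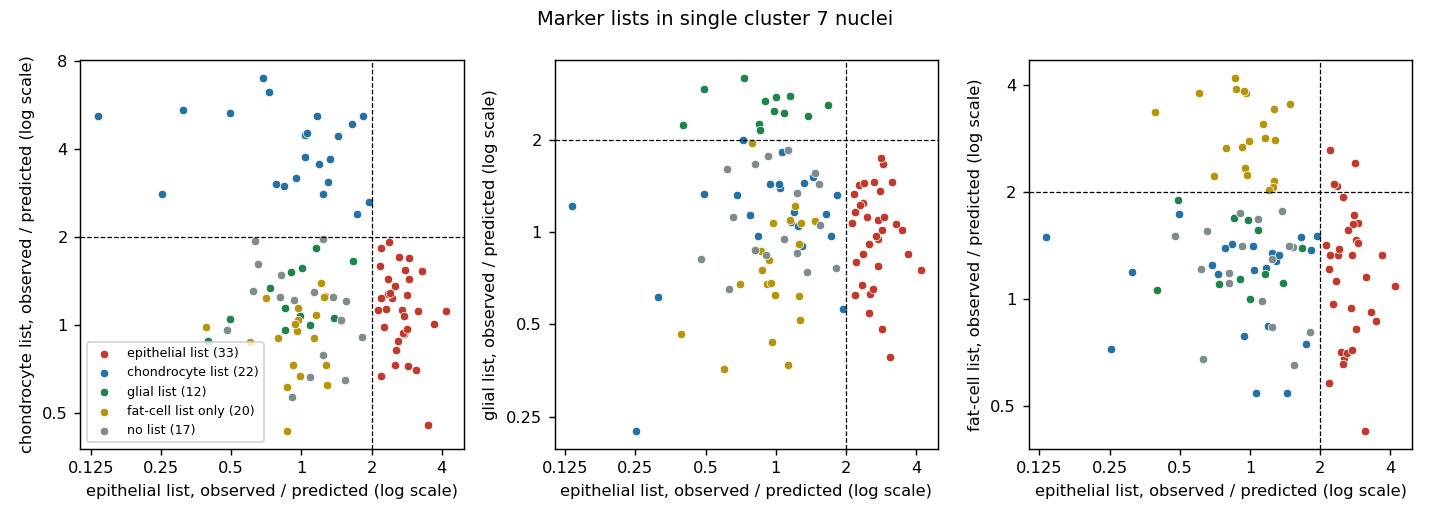
Each point is 1 of 104 cluster 7 nuclei, with the fragments observed over those predicted for the epithelial list on the x axis and for the chondrocyte, glial or fat-cell list on the y axis of the 3 panels (log axes), and the dashed lines mark a ratio of 2. No nucleus lies in the upper right corner of the first or second panel, whereas 4 epithelial nuclei do in the third.

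The list carried differed in number between the libraries. Of the 6 E12.5 nuclei 2 carried the glial list and 4 none. Of the 26 E13.5 nuclei (1 barcode per linked group) 6 carried the epithelial list (11 of 31 with the linked barcodes that were deep enough), 12 the chondrocyte list, 4 the glial list and 4 none. Of the 67 E15.5 nuclei 22 carried the epithelial list, 10 the chondrocyte list, 6 the glial list and 29 none. Chondrocyte nuclei were thus 46.2% of cluster 7 at E13.5 and 14.9% at E15.5, and epithelial nuclei 23.1% and 32.8%. With 1 library per stage, the stage, the sections cut and the preparation cannot be told apart.

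**Figure D3:**
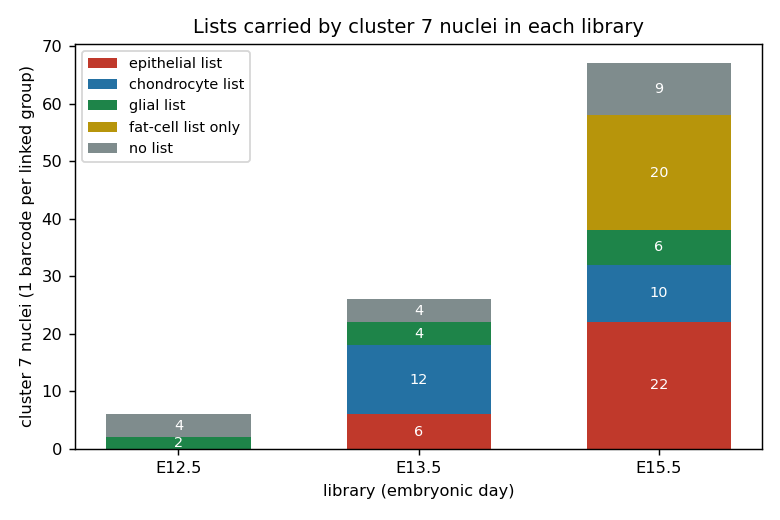
Stacked bars give the number of cluster 7 nuclei in each library, with 1 barcode per linked group, by the list they carried, and no list stands for none of the 4 shown. E13.5 holds 12 chondrocyte nuclei of 26, and the 20 nuclei that carry the fat-cell list alone are all among the 67 of E15.5.

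The epithelial nuclei were not alike in the 2 later libraries. For gene and list levels in sets of nuclei, the other clusters are pooled over the 3 libraries, also where the nuclei come from 1 library. Differences between libraries in the other clusters thus enter these folds, such as 10.6 CPM of Cldn3 at E15.5 against 9.92 CPM pooled. At E15.5 the 22 epithelial nuclei had 109 CPM of Cldn3 against 9.92 CPM in the other clusters (11.03-fold, 9.08 to 13.3), and Sfn (8.77-fold), Esrp2 (6.63-fold), Epcam (4.004-fold) and Cdh1 (3.89-fold) were high as well. All of these genes belong to the epithelial list that had chosen the nuclei, so their folds describe the choice. The list for endoderm and glands had 7 of 18 genes at least 1.5-fold higher in these nuclei. Over all 33 epithelial nuclei 11.2% of all genes were, and the share in these 22 alone was not counted. Single genes with known roles in the lung or foregut, chosen after their values were seen, were high, namely the pioneer factors Foxa1 (97.2 against 16.9 CPM, 5.75-fold) and Foxa2 (72.7 against 13.3 CPM, 5.48-fold), the lung and thyroid factor Nkx2-1 (44.1 against 10.6 CPM, 4.17-fold, in 14 of 22 nuclei), the alveolar claudin Cldn18 (60.4 against 12.1 CPM, 4.99-fold, in 15 nuclei) and the surfactant gene Sftpc (25.3 against 7.498 CPM, 3.38-fold, 31 fragments in 9 nuclei). Other endoderm factors were not, with Sox17 at 1.22-fold, Sox2 at 1.08-fold, Pdx1 at 0.84-fold and Cdx2 and Hnf4a both at 0.42-fold. Some of the high genes were also high in chondrocyte nuclei, Sftpc at 4.63-fold (2.37 to 8.16, 12 fragments) and Foxa2 at 2.62-fold in those of E15.5, and Nkx2-1 at 2.53-fold and Cldn18 at 2.20-fold in those of E13.5. The keratins of basal epidermis were near the other clusters in the E15.5 epithelial nuclei, Krt5 at 1.63-fold (0.81 to 2.96) and Krt14 at 1.20-fold (0.44 to 2.65).

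At E13.5 the order was different. In the 6 epithelial nuclei Krt5 reached 63.02 CPM against 5.498 CPM (11.5-fold, 7.003 to 17.8) and Krt14 39.0 against 4.08 CPM (9.55-fold, 5.02 to 16.6), while Sftpc was at 0.80-fold (2 fragments) and Cldn18 at 0.74-fold (3 fragments). Trp63 was at 2.40-fold in these nuclei and at 1.06-fold in the E15.5 ones. Krt5, Krt14 and Trp63 belong to the epithelial list that had chosen the nuclei of both libraries. The Krt5 and Krt14 counts were small, with 21 and 13 fragments in 3 and 2 nuclei, and in the 5 nuclei outside the linked group they were 19 fragments in 2 nuclei (11.4-fold) and 9 fragments in 1 nucleus (7.26-fold). Shh, a signal made by many embryonic epithelia and also chosen after its values were seen, was high in both libraries, 6.92-fold at E13.5 and 6.10-fold at E15.5, as was Foxa1 (3.73-fold and 5.75-fold). The surface ectoderm list as a whole stood at 1.97-fold at E13.5 and 1.37-fold at E15.5, and the list for endoderm and glands at 1.41-fold and 1.80-fold. Other lists were raised as well, those for melanocytes (1.58-fold) and for kidney and urogenital epithelium (1.53-fold) in the 6 E13.5 nuclei and the fat-cell list (1.54-fold, 1.48 to 1.60) in the E15.5 ones, and their part was not tested. Over the single epithelial nuclei of both libraries, the chondrocyte list of the label had a median ratio of 1.13 and reached 1.93, and its part was not tested either.

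The linked group had higher Krt5 and Krt14 folds than the E13.5 epithelial nuclei outside it, but on counts that repeat shared fragments. Of its 11 barcodes 6 were deep enough, and all 6 carried the epithelial list. Summed over these barcodes Krt14 reached 102 CPM (24.9-fold, 14 fragments), Cldn4 109 CPM (17.3-fold, 15 fragments), Krt5 79.9 CPM (14.5-fold, 11 fragments) and Krt1, a keratin of the upper epidermal layers, also 79.9 CPM (9.64-fold, 11 fragments), while Sox10, Nkx2-1, Sftpc and Cldn18 had 0 fragments. Since the barcodes share fragments, these counts are not independent and no interval is given. Krt14, Cldn4 and Krt5 also belong to the epithelial list by which these barcodes were called. The surface ectoderm list stood at 2.54-fold in the group, the endothelial list at 1.61-fold and the list for endoderm and glands at 1.11-fold.

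The chondrocyte nuclei were high over the cartilage matrix genes in both libraries. Of the 28 list genes counted, all 28 were at least 1.5-fold higher in them, where 10.8% of all genes were, but the list had chosen these nuclei. In the 12 E13.5 and 10 E15.5 nuclei Col2a1, the main collagen of cartilage, reached 411 and 512 CPM against 84.5 CPM in the other clusters (4.87-fold and 6.06-fold). Col9a1 was at 7.14-fold and 6.82-fold, Matn3 at 5.34-fold and 7.87-fold, and the SOX9 target Wwp2 at 4.72-fold and 4.62-fold. Acan, the cartilage proteoglycan aggrecan, was at 102 and 260 CPM against 45.9 CPM (2.22-fold, 1.71 to 2.84, and 5.67-fold, 4.54 to 7.00), and Mia at 4.07-fold (2.47 to 6.36) and 10.9-fold (7.20 to 15.8). Outside the list, Mgp, an inhibitor of cartilage mineralisation, was at 5.16-fold and 9.50-fold and Panx3, a channel of hypertrophic chondrocytes and bone, at 5.92-fold and 4.73-fold, both chosen after their values were seen. Col1a1, the collagen of bone and skin, was at 0.65-fold and 1.38-fold and Prrx1, a factor of limb mesenchyme, at 1.22-fold and 0.95-fold. As whole lists, mesenchyme genes stood at 1.33-fold (1.23 to 1.43, 5 of 12 genes at least 1.5-fold higher) and central glia genes at 1.55-fold (1.47 to 1.64, 3 of 10) in the 22 chondrocyte nuclei, and their part in the values above was not tested. Over these single nuclei the epithelial and glial lists of the label had median ratios of 1.05 and 1.19, with highest values of 1.94 and just under 2.

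The 12 glial nuclei were spread over all 3 libraries and were high over neural crest genes of the list that chose them. Sox10 reached 148 CPM against 24.9 CPM in the other clusters (5.94-fold, 4.39 to 7.87), Erbb3 240 against 40.4 CPM (5.93-fold, 4.69 to 7.40), Foxd3 4.43-fold and the early glial lipid carrier Fabp7 5.45-fold. Sox10 was not confined to them, since it stood at 3.28-fold in the E13.5 chondrocyte and 3.25-fold in the E13.5 epithelial nuclei, and at 0.70-fold and 0.49-fold in those of E15.5. Of the 22 list genes 21 were at least 1.5-fold higher, where 15.4% of all genes were. The neural progenitor list moved with it, 1.90-fold (1.70 to 2.12) with 6 of 10 genes at least 1.5-fold higher, and its part in the result was not tested. Outside the list and chosen after its values were seen, Gpr17, a receptor best known from oligodendrocyte precursors, reached 148 CPM against 7.84 CPM (18.9-fold, 13.8 to 25.3, 50 fragments in 11 of 12 nuclei) and was 24.01-fold, 14.6-fold and 21.6-fold higher in the nuclei of the 3 stages. Gpr17 lies inside the body of Lims2 on the opposite strand, and the fragments of both cannot be separated there. The oligodendrocyte factors Olig2 (0 fragments) and Olig1 (1 fragment) were near 0 in the same nuclei, and the melanocyte enzyme gene Tyr had 5 fragments (0.88-fold). The central glia list as a whole stood at 1.37-fold (1.23 to 1.51), with 4 of 10 genes at least 1.5-fold higher. The fat-cell list stood at 1.38-fold (1.27 to 1.49, 6 of 22 genes) and the chondrocyte list at 1.28-fold (1.16 to 1.41, 11 of 28 genes) in the glial nuclei, and the part of these lists was not tested. Dhh, a signal made by Schwann cells, was at 4.84-fold, also chosen after its values were seen.

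Of the 29 E15.5 nuclei with none of the 3 lists, 20 (69.0%) carried a list of 22 genes known from fat cells. This list was added after the gene values of cluster 7 had been seen, so its counts are a description. Fat cells store lipid under the control of PPARG and C/EBP factors, and brown fat burns it for heat through UCP1. Over all deep enough nuclei the list was carried by 0 of 6 at E12.5, 0 of 32 at E13.5 and 24 of 67 at E15.5 (35.8%, exact interval 24.5 to 48.5), among them 4 of the 33 epithelial nuclei and 0 of the chondrocyte and glial nuclei, and in the other clusters by 0% to 6.17%. In the 20 nuclei Pparg reached 259 CPM against 63.6 CPM (4.08-fold), Cebpa 102 against 28.6 CPM (3.58-fold), the lipid chaperone Fabp4 41.8 against 4.85 CPM (8.62-fold), the hormone gene Adipoq 73.5 against 9.14 CPM (8.05-fold, in 20 of 20 nuclei) and the lipid-droplet gene Cidec 96.8 against 12.2 CPM (7.94-fold).

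Genes linked to brown fat gave mixed values in these 20 nuclei. Ebf2 reached 873 CPM against 235 CPM (3.71-fold) and Prdm16 1150 against 512 CPM (2.25-fold), whereas Ucp1 itself had 8.52 against 5.61 CPM (1.52-fold, 0.75 to 2.75, 11 fragments in 5 nuclei) and Ppargc1a, the coactivator that drives it, was at 1.34-fold (1.08 to 1.63). Of the 22 list genes 21 were at least 1.5-fold higher, where 13.6% of all genes were, but the list, made after values were seen, had chosen these nuclei. Outside the list and chosen after their values were seen, the carbonic anhydrase gene Car3 reached 140 CPM against 14.1 CPM (9.96-fold, 8.44 to 11.7), and Pck1 (8.16-fold), the lipid-droplet gene Plin4 (7.06-fold), the muscle and brown-fat oxidase subunit Cox8b (6.23-fold) and the hormone gene Lep (5.51-fold) were high too. Hcar1, the third-ranked gene of the whole cluster, stood at 58.8 CPM against 6.16 CPM (9.54-fold) in these nuclei, but it belongs to the fat-cell list that chose them. Of the markers of the label, Epcam was at 0.26-fold, Sox9 at 0.71-fold and Sox10 at 0.56-fold in them, but the epithelial list as a whole was at 1.05-fold with 7 of 34 genes at least 1.5-fold higher, among them Esrp2 (1.80-fold, 1.36 to 2.36), and Matn3 of the chondrocyte list was at 2.35-fold (1.77 to 3.06). The central glia list was at 1.36-fold (1.29 to 1.44, 2 of 10 genes at least 1.5-fold higher) and the surface ectoderm list at 1.27-fold (1.19 to 1.36, 3 of 17) in them, and their part was not tested.

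**Figure D4:**
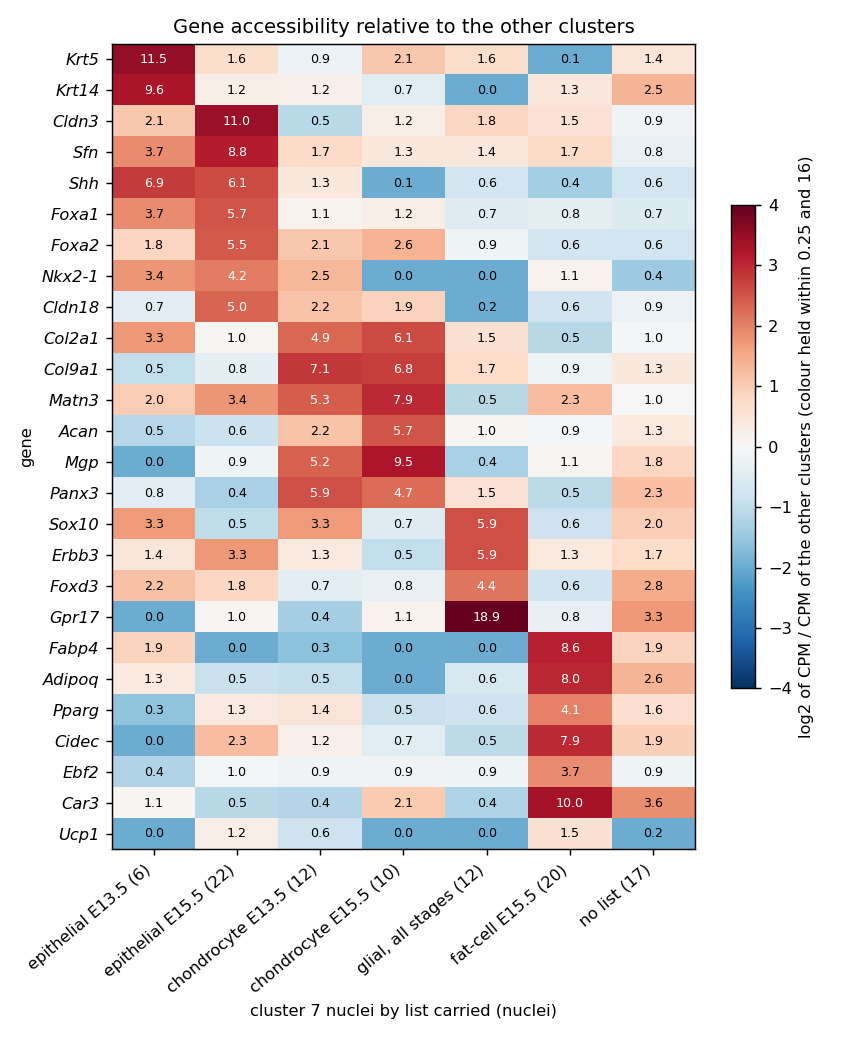
Colour and number give the CPM of a gene in each set of cluster 7 nuclei divided by that in the other clusters pooled over the 3 libraries (colour on a log2 scale), with the number of nuclei in parentheses. Krt5 and Krt14 are highest in the E13.5 epithelial nuclei (11.5 and 9.55), Cldn3 in the E15.5 ones (11.03), Gpr17 in the glial nuclei (18.9) and Car3 in the nuclei of the fat-cell list (9.96). Krt5, Krt14 and Cldn3 belong to the epithelial list that chose the epithelial nuclei.

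The remaining 17 nuclei, called nuclei with no list, carried neither a list of the label nor the fat-cell list, 4 from each of E12.5 and E13.5 and 9 from E15.5. Pooled, their list levels lay between 0.66-fold (neuron) and 1.39-fold (central glia) of the other clusters, with 1.06-fold for the epithelial, 1.10-fold for the chondrocyte, 1.19-fold for the glial and 1.29-fold for the fat-cell list. Within single libraries some were higher. In the 4 E13.5 nuclei the list for kidney and urogenital epithelium stood at 2.04-fold (1.69 to 2.44), the central glia list at 1.58-fold (1.37 to 1.80), the glial list of the label at 1.43-fold (1.23 to 1.65, 11 of 22 genes at least 1.5-fold higher) and the epithelial list at 1.39-fold. Over all 17 nuclei with no list 11.3% of all genes were at least 1.5-fold higher, and the share in these 4 alone was not counted. In the 4 of E12.5 the melanocyte list was at 1.60-fold and the glial list at 1.41-fold, and in the 9 of E15.5 the osteoblast, central glia and fat-cell lists were at 1.53-fold, 1.46-fold and 1.44-fold. Of the lists outside the label, cluster 7 nuclei carried the surface ectoderm list in 12 of 103 (11.7%, and 8 of 98 with 1 barcode per linked group), the list for endoderm and glands in 11 of 102 (10.8%) and the central glia list in 10 of 104 (9.62%) deep enough nuclei. Each of these was passed in another cluster, surface ectoderm by 14.7% in cluster 10, endoderm and glands by 17.4% in cluster 8, and central glia in cluster 9.

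To see whether the split holds without the marker genes, the 109 nuclei were clustered again on 1 kb bins after leaving out every bin within 100 kb of a list gene. Of the 4 sub-clusters, the first held 53 nuclei (26 epithelial, 20 with the fat-cell list and 7 with none), the second 24 (21 chondrocyte and 3 with none), the third 21 (12 glial, 1 epithelial, 1 chondrocyte and 7 with none), and the fourth was exactly the 11 linked barcodes. Of the 67 nuclei that carried a list of the label, 65 (97.0%) lay in a sub-cluster where that list was the most frequent of the 3, the epithelial ones in the first or the fourth. The first did not separate epithelial nuclei from those of the fat-cell list, and its highest genes over all included Fabp4 (39.8-fold, interval 6.88 to 1594) and Adipoq (12.6-fold, 5.64 to 35.1), both known from fat cells and chosen after their values were seen. Among the list genes highest against the rest of cluster 7 were Cldn3 (5.73-fold), Ahsg (5.38-fold), Fgb (4.97-fold), Spp1 (4.35-fold) and Esrp2 (4.17-fold) in the first, Nkx3-2 (8.42-fold), Snorc (7.40-fold), Lum (6.93-fold), Col9a1 (6.40-fold) and Col9a2 (6.27-fold) in the second, Fabp7 (7.64-fold), Ttr (7.13-fold), Sox10 (5.45-fold) and Tubb3 (3.66-fold) in the third, and Krt14 (14.1-fold), Krt19 (10.9-fold), Lor (8.33-fold), Krt1 (7.98-fold) and Krt5 (7.47-fold) in the fourth. Ahsg and Fgb are liver genes and Ttr and Tubb3 are best known from choroid plexus or liver and from neurons, so the leading genes were not all of 1 lineage.

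In some other settings the epithelial nuclei and those of the fat-cell list fell apart, but not in all. With all 109 barcodes, 3 sub-clusters left 32 epithelial nuclei and the 20 of the fat-cell list in 1 sub-cluster. With 5 sub-clusters 26 epithelial nuclei stayed with the 20. With components centred within each library, 24 epithelial nuclei lay apart, while the 20 shared a sub-cluster with 9 epithelial and 12 glial nuclei. With 5 kb bins and all 109 barcodes, 24 nuclei (20 with the fat-cell list, 0 epithelial) formed a sub-cluster, but 68 nuclei (24 epithelial, 20 chondrocyte, 12 glial) shared another, so that only 49.3% of the nuclei that carried a list of the label lay where their list was the most frequent. With 1 barcode per linked group and 5 sub-clusters, a setting chosen after seeing the data, 27 nuclei (24 epithelial) and 27 nuclei (20 with the fat-cell list, 3 epithelial) formed sub-clusters of their own beside 24 nuclei (21 chondrocyte) and 19 nuclei (12 glial), and leaving out the fat-cell loci as well gave the same counts. The sub-cluster of the fat-cell list stood apart in quality too, with a median of 8.61% of fragments at transcription start sites against 13.4% to 16% in the other 3 of these (and 3.94% in the last, of 2 nuclei), and with the highest median depth (96675 against 46727 to 83434 fragments) and the most positions covered 3 or more times (364 against 190 to 327). With 5 kb bins its median was 504 such positions, against 8 to 284 in the other sub-clusters, and the part of quality and doublets in the fat-cell result was not tested. With 4 sub-clusters in place of 5 the glial and epithelial nuclei shared 1 sub-cluster, and 79.0% lay in a sub-cluster where their own list was the most frequent of the 3. In a space built on the 1 kb bins of all clusters compared, with 1 barcode per linked group, 86.3% of the 10 nearest neighbours of the 99 nuclei were in cluster 7, which made up 6.95% of the candidates. The cluster had been made from the same fragments, so this share describes the cluster and is no test of it. Neighbours carried the same list for 81.1% of the neighbours of epithelial nuclei, 75.5% of those of chondrocyte nuclei and 71.7% of those of glial nuclei, and 68.6% of the neighbours of nuclei with none of the 3 lists also had none. Of the 99 nuclei 28, 22, 12 and 37 had these calls.

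Accessible regions away from promoters were then used as a readout that no gene list had chosen. Windows of 500 bases, more than 1 kb from every start site and outside exons, were chosen in E15.5 when cluster 7 had at least 20 Tn5 insertions from at least 8 nuclei and at least 5 times the rate of the other clusters, and were read in the E13.5 nuclei, which had no part in the choice of windows. The cluster itself had been made from both libraries, so the values at E13.5 are a description and no independent test. Of the 4041 regions chosen, 443 (10.96%, exact interval 10.02 to 11.97) were at least 5-fold higher in cluster 7 at E13.5 as well, where 2.80% of the 183475 distal windows with at least 100 insertions over all nuclei compared were. The chosen regions did not have to reach 100 insertions, so these windows were not matched to them in number of insertions. At E13.5, 54.4% of the chosen regions and 40.5% of all windows were above 1, and the median ratio of the chosen regions was 1.21. The 6 regions with the most E15.5 insertions among the 443 lay nearest to Amotl2, Isca2, Sept5, Rflna (2 regions) and Ercc6l2, with E13.5 ratios between 5.70 and 7.99.

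How far a region carried over differed with the nuclei that led it. A region was assigned to a set of nuclei when its E15.5 rate there was at least 3 times that in the next set. Of 89 regions led by chondrocyte nuclei 61 (68.5%) were at least 5-fold higher in cluster 7 at E13.5 (median ratio 7.17), against 30 of 95 (31.6%, 3.16) led by glial nuclei, 90 of 652 (13.8%, 1.43) led by epithelial nuclei and 31 of 706 (4.39%, 0.58) led by the nuclei of the fat-cell list. The 2492 regions led by no single set gave 231 (9.27%, 1.22). The choice had needed insertions from at least 8 E15.5 nuclei, while the chondrocyte, glial, epithelial and fat-cell sets held 10, 6, 22 and 20. Every glial region thus also held insertions from nuclei outside its set, and the part of this filter in the differences was not tested. At E13.5, 12 of the 26 cluster 7 nuclei carried the chondrocyte list and none the fat-cell list alone.

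Read in the E13.5 nuclei by the list they carried, the chondrocyte and glial regions were highest in the matching nuclei. Only regions over 100 kb from the counted genes of the 3 lists and of the fat-cell list were used. Of the 30 chondrocyte list genes 28 were counted. Regions near the uncounted ones, or near genes found only in other lists, were not left out, and their part was not tested. The 80 chondrocyte regions were 15.2-fold (14.2 to 16.2) above the other clusters in the chondrocyte nuclei, 4.11-fold (3.25 to 5.14) in the 4 nuclei with no list, 1.03-fold in the epithelial and 1.52-fold in the glial nuclei. The 88 glial regions were 6.46-fold (5.45 to 7.60) in the glial nuclei, 5.61-fold (4.71 to 6.63) in the 4 nuclei with no list, 3.48-fold in the chondrocyte and 1.91-fold in the epithelial nuclei. The intervals of the glial nuclei and of those with no list overlap. The 623 epithelial regions were 3.14-fold (2.94 to 3.34) in the epithelial nuclei, 1.57-fold in the chondrocyte and 0.90-fold in the glial nuclei. The 664 regions of the fat-cell list stayed between 1.02-fold and 1.38-fold in every set.

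**Figure D5:**
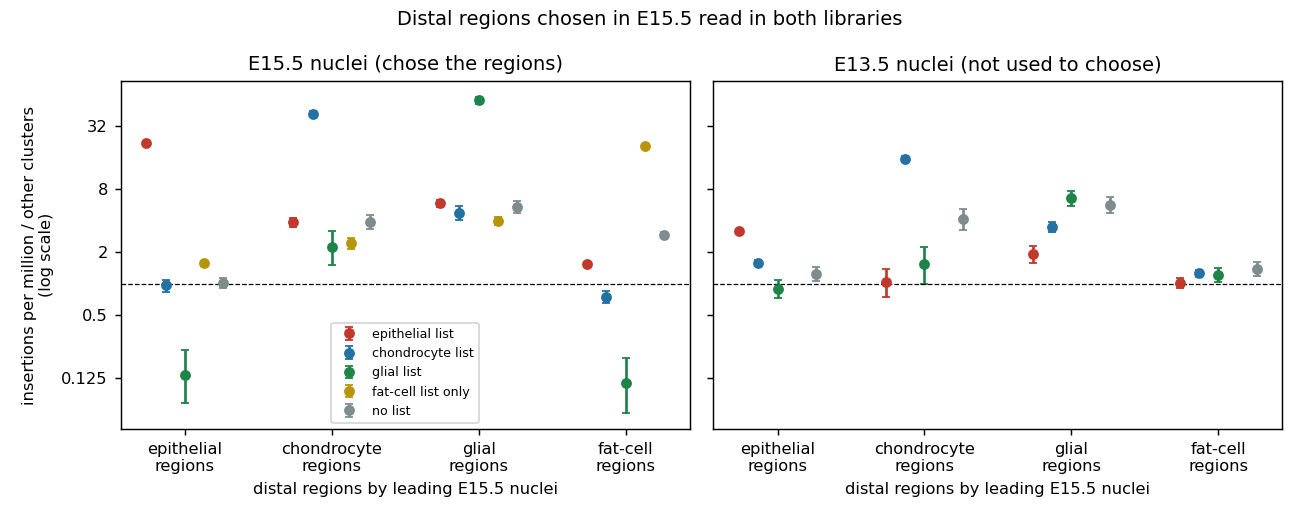
Points give the Tn5 insertion rate, scaled to all insertions, in each set of cluster 7 nuclei divided by those in the other clusters (log axis, exact 95% intervals), over the distal regions led by each set at E15.5, in E15.5 nuclei that chose them (left) and in E13.5 nuclei that did not (right). At E13.5 the chondrocyte regions stand at 15.2 in chondrocyte nuclei and the glial regions at 6.46 in glial nuclei, while the regions of the fat-cell list lie near 1.

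Short sequence motifs of factors known in each lineage were counted in the 500-base regions on both strands, against those 183475 distal windows of that length. The TEAD motif ACATTCC was present in 22.5% of the epithelial regions and 7.66% of all windows, the RUNX motif TGTGGTT in 21.3% of the chondrocyte regions and 11.4%, the SOX motif AACAATG in 14.7% of the glial regions (14 of 95) and 6.09%, and the C/EBP motif TTGCNNAA in 33.0% of the regions of the fat-cell list and 17.5%. The forkhead motif TGTTTAC was in 13.48% of the chondrocyte, 8.59% of the epithelial and 6.06% of all windows. The grainyhead motif AACCGGTT was in 6 of 652 epithelial regions (0.920%) and in 0.171% of all windows. The SOX motif was in 3.37% of the chondrocyte regions. Mean GC content was 49.6%, 50.1%, 50.2% and 48.4% in the epithelial, chondrocyte, glial and fat-cell regions and 49.8% in all windows. Other sets held some of these motifs too, TEAD in 15.8% of the glial regions and C/EBP in 22.9% of the epithelial and 21.3% of the chondrocyte regions. The AP-1 motif TGANTCA was in 16.6% of the epithelial regions and 14.9% of all windows, the GATA motif AGATAAG in 9.66% and 6.41%, the p63 motif in 1.99% and 1.84%, and the EBF motif in 6.09% of the regions of the fat-cell list and 2.02% of all windows. A match is a string of letters and was not tested as a binding site.

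The sequences below show, for each set of nuclei, the 2 regions with the most E15.5 insertions whose 300 bases with the most cluster 7 insertions hold the motif above. They are the GRCm38 (mm10) plus strand, 5′ to 3′, with every match to the motif, on either strand, in capitals, and all are intergenic or intronic. The first epithelial one lies 27347 bases upstream of the start of Slc44a3 at chr3:121559531-121559830 (71 insertions from 17 E15.5 nuclei, 12.99-fold over the other clusters, and 1.05-fold at E13.5) and the second 33606 bases upstream of Foxp4 at chr17:47958131-47958430 (15.8-fold and 3.71-fold). The chondrocyte ones lie inside Aldh1l1 at chr6:90507001-90507300 (5.24-fold and 10.2-fold) and inside Matn3 at chr12:8954161-8954460 (6.22-fold and 7.14-fold). The glial ones lie inside Tmem205, 3220 bases upstream of Ccdc159, at chr9:21924021-21924320 (5.10-fold and 0.95-fold) and 3846 bases upstream of Ptpn21 at chr12:98741141-98741440 (7.90-fold and 6.32-fold). Those of the fat-cell list lie inside Bahcc1 at chr11:120243001-120243300 (5.04-fold and 1.14-fold) and 19905 bases upstream of Slc38a10 at chr11:120171171-120171470 (11.6-fold and 0.20-fold). Both chondrocyte regions were over 5-fold above the other clusters at E13.5, and neither region of the fat-cell list was.
epithelial, near Slc44a3, TEAD: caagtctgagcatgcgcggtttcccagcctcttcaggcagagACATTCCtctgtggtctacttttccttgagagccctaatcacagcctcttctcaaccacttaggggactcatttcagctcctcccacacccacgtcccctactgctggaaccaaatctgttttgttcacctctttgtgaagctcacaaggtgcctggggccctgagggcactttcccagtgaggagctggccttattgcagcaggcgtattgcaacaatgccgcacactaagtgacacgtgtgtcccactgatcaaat
epithelial, near Foxp4, TEAD: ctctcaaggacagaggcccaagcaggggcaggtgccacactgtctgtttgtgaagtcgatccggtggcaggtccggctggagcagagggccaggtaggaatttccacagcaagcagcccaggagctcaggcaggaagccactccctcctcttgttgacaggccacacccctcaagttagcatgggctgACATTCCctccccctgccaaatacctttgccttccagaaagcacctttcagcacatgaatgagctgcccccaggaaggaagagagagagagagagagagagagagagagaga
chondrocyte, in Aldh1l1, RUNX: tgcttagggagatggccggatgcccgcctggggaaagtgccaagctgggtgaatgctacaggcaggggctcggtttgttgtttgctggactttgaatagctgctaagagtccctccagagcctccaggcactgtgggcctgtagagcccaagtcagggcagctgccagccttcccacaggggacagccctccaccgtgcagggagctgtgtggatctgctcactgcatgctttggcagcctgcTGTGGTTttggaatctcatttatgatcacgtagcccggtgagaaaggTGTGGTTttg
chondrocyte, in Matn3, RUNX: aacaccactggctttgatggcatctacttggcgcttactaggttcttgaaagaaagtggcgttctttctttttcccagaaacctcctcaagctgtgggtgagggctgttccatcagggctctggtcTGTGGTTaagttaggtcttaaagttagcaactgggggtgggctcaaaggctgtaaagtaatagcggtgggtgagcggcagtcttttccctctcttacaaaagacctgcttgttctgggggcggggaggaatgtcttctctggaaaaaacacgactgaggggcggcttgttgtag
glial, in Tmem205, SOX: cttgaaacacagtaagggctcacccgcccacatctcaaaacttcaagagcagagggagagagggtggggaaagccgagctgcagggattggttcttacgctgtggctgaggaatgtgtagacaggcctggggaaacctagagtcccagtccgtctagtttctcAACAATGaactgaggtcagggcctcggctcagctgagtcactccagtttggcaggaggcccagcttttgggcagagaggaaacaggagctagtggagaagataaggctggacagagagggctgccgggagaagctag
glial, near Ptpn21, SOX: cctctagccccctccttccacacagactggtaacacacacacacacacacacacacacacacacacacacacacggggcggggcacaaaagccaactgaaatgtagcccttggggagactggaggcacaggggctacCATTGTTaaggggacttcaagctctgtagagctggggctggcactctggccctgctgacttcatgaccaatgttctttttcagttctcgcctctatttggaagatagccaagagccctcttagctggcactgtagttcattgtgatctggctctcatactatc
fat-cell list, in Bahcc1, C/EBP: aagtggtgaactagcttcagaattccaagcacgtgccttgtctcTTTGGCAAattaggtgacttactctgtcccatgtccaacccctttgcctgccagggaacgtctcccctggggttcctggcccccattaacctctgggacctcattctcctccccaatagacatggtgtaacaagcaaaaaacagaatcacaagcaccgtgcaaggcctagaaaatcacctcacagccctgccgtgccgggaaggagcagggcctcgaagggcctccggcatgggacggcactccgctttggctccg
fat-cell list, near Slc38a10, C/EBP: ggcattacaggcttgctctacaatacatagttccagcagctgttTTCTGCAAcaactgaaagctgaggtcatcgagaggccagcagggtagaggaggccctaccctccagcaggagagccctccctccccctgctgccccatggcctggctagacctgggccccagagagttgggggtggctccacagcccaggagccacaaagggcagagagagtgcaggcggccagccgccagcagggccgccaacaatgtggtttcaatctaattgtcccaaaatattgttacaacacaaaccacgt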

How the data were processed

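Per the labels, the 3 libraries were made with the 10x Single Cell ATAC Next GEM kit and, per the submitters' processing notes, with Cell Ranger ATAC 2.0.0, Signac 1.6.0 and Seurat 4.1.0 on mm10. The deposited fragment files list each fragment with its barcode and a count of read pairs, and the deposited annotation gives a cluster number per barcode, whose origin in the authors' integration with spatial data was not given in the sources used here; 16 other annotation columns were not used.

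Fragments of 1879 annotated barcodes were counted over 21593 protein-coding genes of GENCODE (body and 2 kb upstream; 91 Pcdh and Ugt genes and 228 spans above 500 kb left out) and scaled to CPM. Totals per nucleus differed from the deposited tally by at most 0.604%. No fragment passed a chromosome end of the GRCm38 reference. Ratios carry exact intervals; clusters were made from the same fragments and stages have 1 library each, so no test was run. Barcodes sharing at least 10% of identical fragments were linked. Sub-clusters used TF-IDF components 2 to 8 and Ward linkage. Printed sequences were chosen with 1 chromosome left out. Scripts were checked on simulated data (Python 3.11.15, numpy 2.4.6, scipy 1.17.1).

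Named genes were the 5 label markers, the 6 highest and 2 lowest of each of the 3 lists (at least 20 fragments), the 10 highest and 5 lowest of all genes (at least 30), the 5 highest list genes of each sub-cluster and the genes nearest to 6 distal regions. The members and lists were chosen with earlier results of these data known, and the fat-cell list after gene values were seen. Some genes that this rule selects are not reported here.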

Additional observations from a re-analysis of the deposited data

Results flagged for a closer look

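For 2 named genes the ratio of cluster 7 to the other clusters had 95% counting intervals wholly above 1 in 1 library and wholly below 1 in another. Other named genes, such as Epcam, Cldn3, Matn3, Col9a1, Klhdc7a and Slc4a1, also lay on both sides of 1, with an interval that included 1 on at least 1 side. Trp63 had a ratio of 1.47 at E13.5 and 0.764 at E15.5, and Gpr37l1 had 0 fragments at E12.5 (ratio 0, in 6 nuclei) and ratios of 2.21 at E13.5 and 2.45 at E15.5. Each stage has 1 library, so neither difference was tested. The makeup of the cluster differed between these libraries as well, with 6 epithelial nuclei of 26 at E13.5 and 22 of 67 at E15.5, and its part in the Trp63 values was not tested.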

How the results depend on the processing

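No paired analysis was possible because each stage has 1 library. Counting promoters alone left 14, 14 and 5 epithelial, chondrocyte and glial nuclei of 43 deep enough, 4 with more than 1 list, and took Krt19 to a ratio of 0.876. At a carrying ratio of 1.5, 36 nuclei carried the chondrocyte, 23 the glial and 19 more than 1 list; at 3, 6 carried the epithelial and 1 the glial list. Thinned to 10000 fragments, 13 carried the epithelial, 10 the chondrocyte and 4 more than 1 list of 44 deep enough. Without clusters 3 and 8 in the comparison 3 nuclei carried more than 1 list. Leaving out 1 library at a time, genes at least 1.5-fold higher ranged from 16 to 26 epithelial, 11 to 21 chondrocyte and 3 to 9 glial, where 5.80% to 8.87% of all genes were. Carrying nuclei ranged from 11 to 33, 10 to 22 and 6 to 11 in the same settings, with 0 to 1 carrying more than 1 list. Sub-cluster agreement was 49.3% with 5 kb bins, 86.6% with components centred within each library and 79.0% with 1 barcode per linked group, and regions at least 5-fold higher in the other library were 9.82% when chosen at a ratio of 3 and 8.97% when chosen in E13.5. The fat-cell list was carried by 17 nuclei with promoters alone, 40 at a ratio of 1.5, 9 at 3, 25 after thinning and 0 without E15.5. The cause of these changes was not tested, beyond the fewer nuclei or fragments that a setting leaves. Among the named genes, 248 of 351 values moved by less than their interval. Under other scalings the median ratio of all genes lay between 0.954 and 0.993. Small sets limit the depth: 6 nuclei at E12.5, 12 glial nuclei and 6 epithelial ones at E13.5.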
